A study of Mus musculus with 12 samples.

Results

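Phgdh, Psat1 and Psph encode the 3 enzymes that make serine from the glycolytic intermediate 3-phosphoglycerate, and Shmt2 encodes the mitochondrial enzyme that uses serine next. These 4 genes, of 768 on the panel, were followed through 12 mouse hearts. Phgdh was chosen because its level was high in hearts without Slc25a1, and the other 3 were added to ask whether the rest of the path moved with it. The hearts came from E17.5 mouse embryos whose parents were both heterozygous for a knockout of Slc25a1, the gene of the mitochondrial citrate carrier. They formed 3 genotypes of 4 hearts each, homozygous knockout (KO), heterozygous knockout (HET) and wild type (WT), and no other allele or treatment is named in the labels. RNA of whole hearts was counted on the NanoString nCounter, which reads colour-coded probes bound to transcripts without amplification. The sources used here do not give how the knockout allele was made, nor the litter or sex of an embryo. In RNA of a whole heart, fewer cells of a type and less RNA per cell cannot be told apart.

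Serine synthesis leaves glycolysis at 3-phosphoglycerate. Phgdh oxidises it with NAD+ to 3-phosphohydroxypyruvate, Psat1 transfers an amino group from glutamate and releases 2-oxoglutarate, and Psph removes the phosphate to give serine. In the mitochondrial matrix Shmt2 splits serine into glycine and a one-carbon unit carried on tetrahydrofolate, which feeds purine and thymidylate synthesis. All 4 genes are known targets of the stress transcription factor ATF4.

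Each value is a probe count divided by the count of the reference gene Tbp in the same heart. The Tbp count was 276 to 433, and its counting error of 4.81% to 6.02% is shared by every ratio of a heart. The total count was 1285512 to 1565516 per heart. The members' own counts gave errors of 2.4% to 6.9%, and a member's ratio to Tbp an error of 5.45% to 9.07%. These errors cover counting only. Slc25a1 followed the labels, with ratios of 0.0985 ± 0.0182 in KO, 0.345 ± 0.0404 in HET and 0.613 ± 0.00721 in WT hearts (SD, n = 4 each). None of 22 listed cardiomyocyte markers or 11 fibroblast markers is on the panel, so the tissue label could not be checked against them. All 4 members passed the filter of a mean count of at least 20, with mean counts of 286 for Phgdh, 1580 for Psat1, 439 for Psph and 926 for Shmt2. Because a shift of Tbp moves every gene of a heart together, each comparison was also made with every heart centred on the median log2 value of its 695 tested genes.

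The stretches just upstream of the transcription starts of Phgdh, Psat1 and Shmt2 are shown because the question is whether the genes moved as a group. They come from RefSeq on build GRCm38.p6, all on the minus strand, and each holds the 250 bases before the start, written 5′ to 3′ in the direction of the gene. The Phgdh stretch lies at chr3:98339970-98340219, that of Psat1 at chr19:15925060-15925309 and that of Shmt2 at chr10:127522445-127522694. Psat1 has 2 starts in the table, and the one farther upstream was used. The stretch the table gives for Psph is not shown, because 190 of its 250 bases lie inside the annotated gene. Capitals mark matches, on either strand, to 12 motifs. The motifs were the ATF4 and C/EBP composite element (TGATGNAA), the ATF4 core (TTGCATCA), its TGATG part alone, the C/EBP element (TTGCNNAA), the short CRE (TGACG), the full CRE (TGACGTCA), the E-box (CACGTG), the CCAAT box (CCAAT), the antioxidant response element (TGACNNNGC), the TATA box (TATAAA), the GC box (GGGCGG) and the NRF1 box, which stands in capitals in the Shmt2 stretch. They were chosen with these sequences in view.
Phgdh: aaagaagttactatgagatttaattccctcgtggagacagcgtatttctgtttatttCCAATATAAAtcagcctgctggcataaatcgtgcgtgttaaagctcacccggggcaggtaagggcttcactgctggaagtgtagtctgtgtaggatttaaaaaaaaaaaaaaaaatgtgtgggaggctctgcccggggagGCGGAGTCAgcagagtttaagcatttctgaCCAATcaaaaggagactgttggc
Psat1: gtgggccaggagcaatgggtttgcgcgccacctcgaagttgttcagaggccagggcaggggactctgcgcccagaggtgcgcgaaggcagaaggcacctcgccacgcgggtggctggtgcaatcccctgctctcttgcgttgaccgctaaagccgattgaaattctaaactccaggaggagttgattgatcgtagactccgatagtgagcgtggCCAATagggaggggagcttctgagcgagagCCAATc
Shmt2: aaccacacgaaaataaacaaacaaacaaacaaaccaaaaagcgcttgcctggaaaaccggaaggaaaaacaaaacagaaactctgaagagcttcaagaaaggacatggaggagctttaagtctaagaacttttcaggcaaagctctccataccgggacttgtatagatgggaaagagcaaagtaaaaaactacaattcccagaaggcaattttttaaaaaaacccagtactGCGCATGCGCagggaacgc

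Phgdh and Psat1 each held 2 CCAAT boxes, and Shmt2 held 0. Of 32851 such upstream stretches in the table, 33.8% held at least 1 CCAAT box and 10.1% at least 2. Phgdh alone of the 3 held an antioxidant response element, ending 45 bases upstream of its start, a motif found in 10.2% of the stretches. It also held a TATA box far upstream, ending 184 bases before the start and sharing a base with 1 of its CCAAT boxes, the 1 overlap between matches (12.4% of the stretches held a TATA box). Shmt2 alone held an NRF1 box, ending 10 bases upstream of its start, a motif found in 3.74% of the stretches. The other 8 motifs had no match in the 3 windows. TGATG is part of the composite element and of the ATF4 core, and the short CRE is part of the full CRE. Where the shorter motif is absent, the longer one must be absent too. They were found in 3.45% of all stretches for the composite element, 0.791% for the ATF4 core, 34.5% for TGATG, 9.56% for the C/EBP element, 17.8% for the short CRE, 1.55% for the full CRE, 6.02% for the E-box and 32.7% for the GC box. A match is a run of letters and was not tested as a binding site.

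Phgdh, the first and committed enzyme, stood apart from the other genes of the path. Its ratio to Tbp was 0.940, 1.19, 1.01 and 1.14 in the KO hearts, 0.729, 0.655, 0.713 and 0.684 in the HET hearts and 0.855, 0.814, 0.687 and 0.772 in the WT hearts. All 4 KO hearts lay above all HET and all WT hearts, while HET and WT overlapped. The lowest KO heart, replicate 1 at 0.940, was above the highest WT heart, replicate 1 at 0.855. The ratio averaged 1.07 ± 0.115 in KO, 0.695 ± 0.0329 in HET and 0.782 ± 0.0717 in WT hearts (SD, n = 4 each). The log2 change was 0.45 in KO against WT and 0.61 in KO against HET, or 1.36-fold and 1.53-fold. As Phgdh was chosen for this difference, these values are a description and carry no test. Over the panel, 0.719% of 695 genes had all KO hearts above all WT hearts, and 0.288% had all KO hearts above all HET hearts. By log2 change Phgdh ranked 16 from the top of 695 in KO against WT and 1 in KO against HET.

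**Figure D1:**
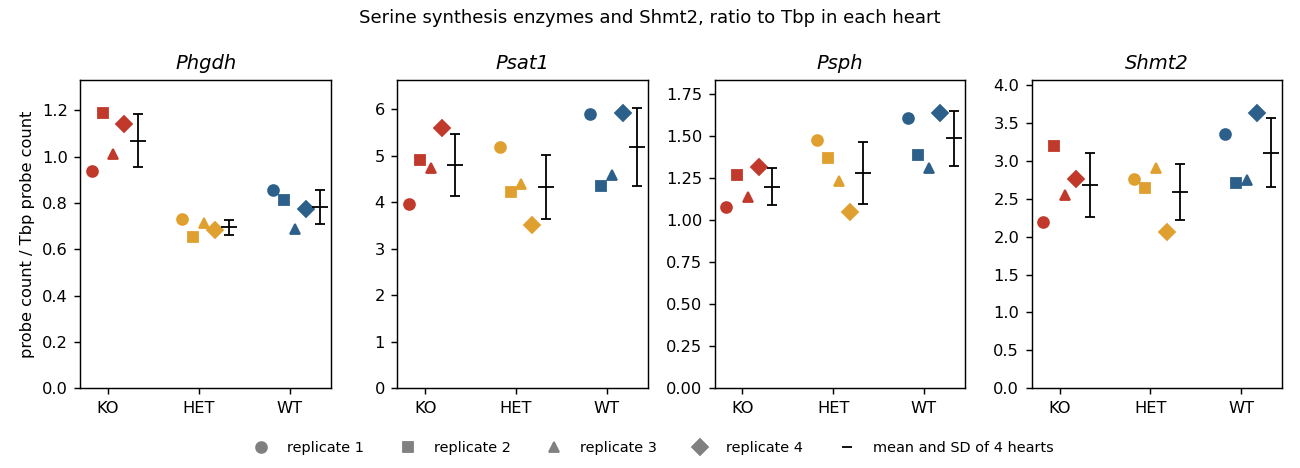
Probe count divided by the Tbp count (vertical axis, a ratio, starting at 0) for Phgdh, Psat1, Psph and Shmt2 in 4 KO, 4 HET and 4 WT hearts, with a symbol per heart and bars for mean and SD. Phgdh lies between 0.940 and 1.19 in KO hearts, above every HET and WT heart, while the genotypes overlap for Psat1, Psph and Shmt2.

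After median centring the KO hearts drew closer together in Phgdh, from a log2 SD of 0.156 before it, but the HET hearts did not. The SD of HET hearts rose from 0.0690 to 0.142, and that of WT hearts went from 0.135 to 0.121. Relative to the WT mean the KO hearts stood at 0.53, 0.64, 0.58 and 0.56 on the log2 scale, with HET hearts between -0.23 and 0.11 and WT hearts between -0.15 and 0.13. The SD over KO hearts was 0.0474, below the counting error of 0.0746 that these counts carry on that scale, so the KO hearts could not be ranked among themselves. The lead over WT was 0.58, or 1.49-fold, and that over HET 0.66, or 1.58-fold. On this scale 5.18% of all genes had all KO hearts above all WT hearts and 1.73% had all KO hearts above all HET hearts. Phgdh was not chosen for HET against WT, but the same HET and WT hearts stood behind its choice, so this comparison is not independent of it. In HET against WT Phgdh had a log2 change of -0.17 (SE 0.114, 95% interval -0.41 to 0.08, limma adjusted p = 0.871). After centring that change was -0.09 (limma adjusted p = 0.833).

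Psat1, the aminotransferase of the middle step, did not show the KO pattern of Phgdh. Its ratio was 3.97, 4.91, 4.74 and 5.58 in KO hearts, 5.18, 4.22, 4.39 and 3.50 in HET hearts and 5.90, 4.35, 4.58 and 5.92 in WT hearts. All 3 genotypes overlapped, with the highest WT heart above every KO heart and the lowest HET heart below every other heart. The means were 4.80 ± 0.664 in KO, 4.32 ± 0.688 in HET and 5.19 ± 0.837 in WT hearts (SD, n = 4 each). In KO against WT the log2 change was -0.11 (SE 0.154, 95% interval -0.44 to 0.22, limma adjusted p = 0.685), and after median centring it was 0.02 (95% interval -0.16 to 0.20, limma adjusted p = 0.911). Its sign therefore depended on the scaling.

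Psph, the phosphatase that releases free serine, had a lower mean in KO than in WT hearts but was not called. Its ratio was 1.08, 1.27, 1.13 and 1.32 in KO hearts, 1.48, 1.37, 1.23 and 1.05 in HET hearts and 1.61, 1.39, 1.31 and 1.64 in WT hearts. Of the 4 KO hearts, 3 were below every WT heart, and replicate 4 lay just above the lowest WT heart. The means were 1.20 ± 0.111 in KO, 1.28 ± 0.184 in HET and 1.49 ± 0.162 in WT hearts (SD, n = 4 each). The log2 change in KO against WT was -0.31 (SE 0.131, 95% interval -0.59 to -0.03), and the gene was not called (limma unadjusted p = 0.0335, adjusted p = 0.371). The panel as a whole stood at a median of -0.13 in that comparison, and relative to it Psph was lower by less, at -0.18 after median centring (95% interval -0.29 to -0.07, limma adjusted p = 0.223). Scaled to the total count, which put the panel median at 0.135, Psph stood at -0.0445 (limma adjusted p = 0.665).

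On the centred scale Psph separated WT from both other genotypes. KO hearts lay between -0.19 and -0.15, HET hearts between -0.23 and -0.04 and WT hearts between -0.02 and 0.03 relative to the WT mean. All 4 KO and all 4 HET hearts were below all 4 WT hearts. On that scale 3.74% of the 695 genes had all KO hearts below all WT hearts, and 1.29% had all HET hearts below all WT hearts. Both statements use the same 4 WT hearts, whose SD of 0.0276 was below their counting error of 0.0665, as was that of KO hearts, 0.0188 against 0.0704. The observed spread within KO and WT hearts was thus narrower than counting alone gives on average.

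Shmt2, the mitochondrial user of serine, overlapped in all 3 genotypes. Its ratio was 2.19, 3.20, 2.55 and 2.77 in KO hearts, 2.76, 2.64, 2.91 and 2.06 in HET hearts and 3.36, 2.70, 2.75 and 3.64 in WT hearts. KO replicate 2 and the WT hearts 1 and 4 were the highest, and HET replicate 4 was the lowest. The means were 2.68 ± 0.423 in KO, 2.59 ± 0.372 in HET and 3.11 ± 0.460 in WT hearts (SD, n = 4 each). The log2 change in KO against WT was -0.22 (SE 0.152, 95% interval -0.54 to 0.11, limma adjusted p = 0.446), and -0.09 after median centring (95% interval -0.26 to 0.09, limma adjusted p = 0.563).

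**Figure D2:**
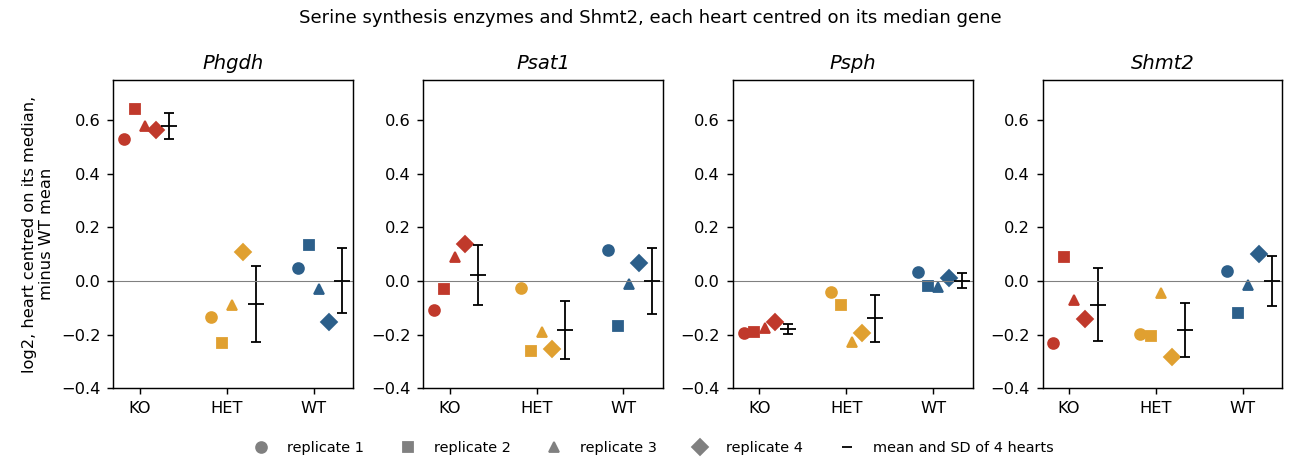
The same 12 hearts after centring each heart on the median of its 695 tested genes (vertical axis, log2 units relative to the WT mean, 1 scale for the 4 genes), with a symbol per heart and bars for mean and SD. KO hearts stand at 0.53 to 0.64 in Phgdh, and KO and HET hearts all lie below the WT hearts in Psph.

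In KO against WT, 0 of Psat1, Psph and Shmt2 were called by limma at an adjusted p under 0.05, and 0.144% of all 695 genes were called. At an unadjusted p under 0.05 the count was 1 of the 3, Psph, and 11.1% of all genes passed. After median centring again 0 of the 3 were called and 0.432% of all genes, while Psph alone had an unadjusted p under 0.05, as did 18.6% of all genes. With voom weights, another variance model in limma, the count was also 0, in a fit that called 1 gene of the panel. Given weights for each heart, Psph was called lower at -0.37 (limma adjusted p = 0.0268), in a fit that called 166 genes of the panel.

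In HET against WT the 4 genes were all below WT, by similar amounts, as were 468 of 695 genes of the panel. Ranked by log2 change from the highest, Phgdh was 584, Psat1 679, Psph 658 and Shmt2 678 of 695. The log2 changes were -0.17 for Phgdh, -0.26 for Psat1, -0.22 for Psph and -0.26 for Shmt2, against a median of -0.07 over the panel. The limma adjusted p was 0.871 for each, 0 of the 4 were called, and 0.144% of all genes were called. None of the 4 had an unadjusted p under 0.05 on the deposited scaling, where 3.17% of all genes did. After median centring the changes were -0.09 for Phgdh, -0.18 for Psat1, -0.14 for Psph and -0.18 for Shmt2, and 329 of 695 genes were below WT. On that scale Psat1, Psph and Shmt2 had unadjusted limma p-values of 0.0476, 0.0188 and 0.0418, and 7.19% of all genes had one under 0.05, while the adjusted p was 0.667 for each. HET and KO are set against the same WT hearts, so their changes are not independent.

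In KO against HET, a comparison that leaves the WT hearts out, Psat1 had a log2 change of 0.15 (SE 0.154, 95% interval -0.18 to 0.48, limma adjusted p = 0.937). Shmt2 had one of 0.04 (95% interval -0.28 to 0.37, limma adjusted p = 0.953) and Psph one of -0.09 (95% interval -0.37 to 0.19, limma adjusted p = 0.937). Of these 3 genes 0 were called by limma, with 0 at an unadjusted p under 0.05, where 0.432% of all genes were called and 3.88% had such a p. After median centring Psat1 stood 0.20 above HET (95% interval 0.02 to 0.38, limma unadjusted p = 0.0303, adjusted p = 0.526), with 2 of 4 KO hearts above every HET heart, and 8.35% of all genes had an unadjusted p under 0.05. Scaled to the total count, Psat1 was called higher at 0.288 (limma adjusted p = 0.0441), in a fit that called 7 of 695 genes.

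**Figure D3:**
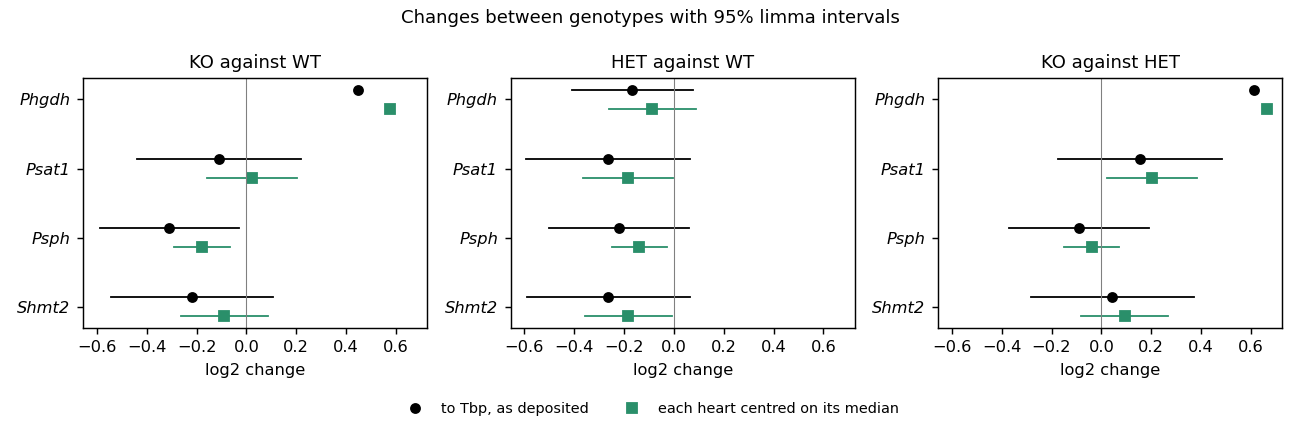
Log2 changes (horizontal axis) of the 4 genes in the 3 comparisons between genotypes, with circles for the deposited scaling to Tbp, squares for median centring and lines for 95% limma intervals. Phgdh is drawn without an interval where KO hearts are compared, as it was chosen on them. In KO against WT the intervals of Psat1 and Shmt2 span 0 on both scalings, and those of Psph lie below 0.

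Ratios between members within a heart do not depend on Tbp or on any scaling. Phgdh over Psph was 1.69-fold its WT value in KO hearts and 1.04-fold in HET hearts. On the log2 scale relative to the WT mean, the KO hearts lay between 0.71 and 0.83, the HET hearts between -0.14 and 0.30 and the WT hearts between -0.16 and 0.15. KO hearts were thus above all others in this ratio. The same held for Phgdh over Shmt2, at 1.59-fold of WT in KO hearts, with KO hearts between 0.55 and 0.76, HET hearts between -0.04 and 0.39 and WT hearts between -0.25 and 0.25. Phgdh over Psat1 was 1.47-fold of WT, with KO hearts between 0.42 and 0.67, HET hearts between -0.11 and 0.36 and WT hearts between -0.22 and 0.30. These 3 ratios hold Phgdh and describe how far it was ahead of the rest of the path. As Phgdh was chosen for its level in KO hearts, they carry no test. The share of panel gene pairs with such a separation was not computed.

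Among the other 3 genes the ratios to one another were closer to WT. Psat1 over Psph was 1.15-fold of WT in KO hearts and 0.97-fold in HET hearts. The KO hearts lay between 0.0839 and 0.289 on the log2 scale, above all 4 HET hearts (highest 0.0379). They were above the highest WT heart (0.0785) by less than 0.01. The share of panel gene pairs whose ratio separates in this way was not computed. Psat1 over Shmt2 was 1.08-fold of WT in KO hearts, between -0.12 and 0.28 on the log2 scale, against WT hearts between -0.05 and 0.08. Psph over Shmt2 was 0.94-fold of WT in KO hearts and overlapped WT. The genotypes were not in 1 order along the path. By mean ratio to Tbp, the order from high to low was KO, WT, HET for Phgdh, WT, KO, HET for Psat1 and Shmt2 and WT, HET, KO for Psph, and on the deposited scaling neighbours in these orders overlapped except KO and WT in Phgdh.

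Hearts with more stromal RNA tended to have lower Psat1 and Shmt2 values. Stromal RNA was scored in each heart as the average of centred log2 values over 7 genes of matrix and mesenchyme, among them the collagen VI chains and Pdgfrb, a list taken from earlier results of these hearts. All 7 were measured, and their summed ratio to Tbp was 22.4 to 27.9 in KO, 21.5 to 33.2 in HET and 19.5 to 33.0 in WT hearts. The score was highest in KO replicate 1 (0.67), HET replicate 4 (0.87) and WT replicate 2 (0.67) within their genotypes, and these were also the lowest hearts of their genotypes in Shmt2 on both scalings. Over 12 hearts the score had a Pearson r of -0.717 with Shmt2 (Spearman rho -0.685), -0.669 with Psat1 (rho -0.678), -0.415 with Psph (rho -0.490) and 0.231 with Phgdh (rho 0.252) on the centred scale. Without the 2 hearts of most extreme score the r was -0.503, -0.561, -0.166 and 0.159 in the same order. As deviations from genotype means it was -0.727 for Shmt2, -0.784 for Psat1, -0.376 for Psph and 0.592 for Phgdh. All these points share the median of their heart, so they are a description. With the score as a covariate, Psat1 stood at -0.01 and Shmt2 at -0.125 in KO against WT on the deposited scaling. Each was nearer 0 than without the score, with Psph at -0.24 and Phgdh at 0.47. On the centred scale the covariate moved Psat1 from 0.0211 to 0.0646, farther from 0, and Shmt2 from -0.0884 to -0.0497. There Psph went from -0.178 to -0.168 and Phgdh from 0.578 to 0.546. Without the 3 hearts of highest score, on the deposited scaling, Phgdh stood at 0.53, Psat1 at -0.10, Psph at -0.29 and Shmt2 at -0.19. The summed ratio of 13 leukocyte markers was 1.58 to 1.75 in KO, 1.80 to 2.24 in HET and 1.62 to 2.17 in WT hearts, and the 1 erythroid marker on the panel had ratios of 7.44 to 9.75, 8.40 to 11.3 and 9.40 to 14.6 in these genotypes. Their part in the members' values was not tested.

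The panel genes whose pattern over the 12 hearts was most like that of each member were different for the 4. Likeness was the Pearson r of centred log2 values, a description in which both genes share the median of each heart. Psat1 was most like the mitotic checkpoint kinase Bub1 (r = 0.92), the cyclin Ccna2 (0.90) and the checkpoint kinase Bub1b (0.88), and within genotypes, as deviations from genotype means, these r were 0.87, 0.84 and 0.81. Shmt2 was most like 3 genes of glycolysis, the phosphofructokinase Pfkl (r = 0.93), the lactate dehydrogenase Ldha (0.87) and the phosphoglycerate kinase Pgk1 (0.83), with 0.926, 0.866 and 0.855 within genotypes. Psph was most like Brcc3, a deubiquitinase (r = 0.94), Lamtor2, a lysosomal scaffold of mTORC1 signalling (0.87), and Prkag1, an AMPK subunit (0.86), with 0.89, 0.72 and 0.59 within genotypes.

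Phgdh was most like the adenine salvage enzyme Aprt (r = 0.83), the DNA repair protein Fancd2 (0.79) and the fatty acid desaturase Scd1 (0.78). As Phgdh was chosen for its level in KO hearts, its r over 12 hearts and the ranks below reuse the values behind that choice. Within genotypes the r of Aprt and Fancd2 was 0.17 and -0.12, whereas that of Scd1 was 0.56. Scd1 stood 0.36 above WT in KO hearts on the deposited log2 scale and 0.49 above it on the centred scale. As Scd1 was picked by its likeness to Phgdh, these changes carry no test. The other enzymes of the path ranked 124 (Psat1, r = 0.36), 321 (Shmt2, r = 0.02) and 582 (Psph, r = -0.54) among the genes most like Phgdh. No pair of the 4 was among each other's 3 nearest genes. Few gene pairs of a large panel can meet that cut-off, so missing it does not show that the members moved apart. The closest pair was Psat1 and Shmt2 (r = 0.555), where Shmt2 ranked 63 for Psat1 and Psat1 ranked 66 for Shmt2. Psph with Psat1 or Shmt2 had ranks of 175 to 196. On the deposited scaling the deviations of the 4 genes correlated with r from 0.57 to 0.91, where all share the Tbp divisor.

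**Figure D4:**
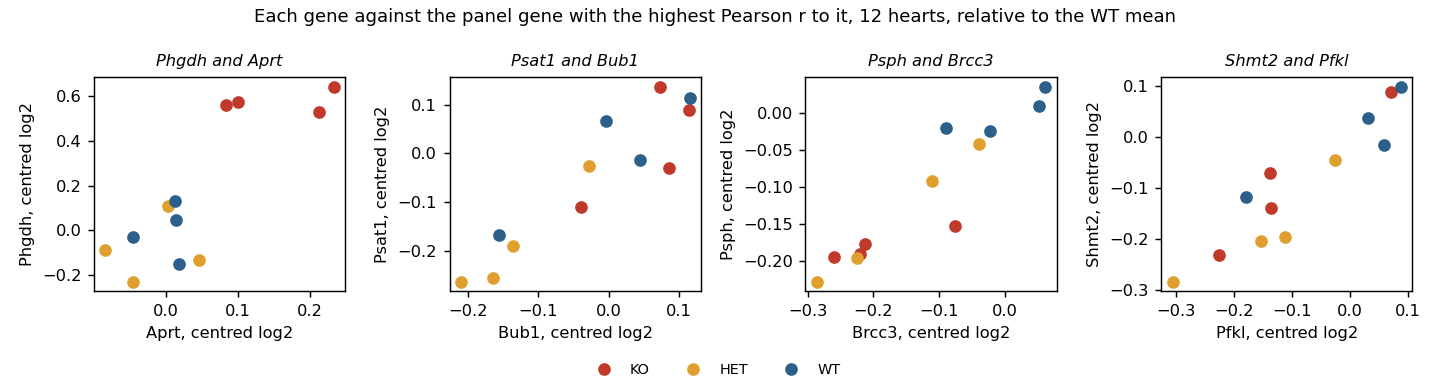
Each of the 4 genes (vertical axis) against the panel gene with the highest Pearson r to it (horizontal axis), both as centred log2 values relative to the WT mean, with a point per heart coloured by genotype. KO hearts form a separate group for Phgdh and Aprt, whereas for Psat1 with Bub1 (r = 0.92), Psph with Brcc3 (r = 0.94) and Shmt2 with Pfkl (r = 0.93) the hearts spread along a line. Phgdh was chosen for its level in KO hearts and Aprt for its likeness to Phgdh, so that separation carries no test. On this scale 5.18% of all genes had all KO hearts above all WT hearts, and 1.73% above all HET hearts.

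No gene of glycolysis around 3-phosphoglycerate, the entry to serine synthesis, was called in KO hearts. In KO against WT only 0.144% of all 695 genes were called, and 0.432% after median centring. Over the panel, 520 of 695 genes were under the WT mean in KO hearts at a median log2 change of -0.13, and 346 of 695 after median centring, so the counts of the lists are to be read against these. Of 15 glycolysis genes above 3-phosphoglycerate, 13 were under the WT mean in KO hearts, at a median log2 change of -0.24, and after median centring 9 were below with a median of -0.11. The kinase Pgk1, which produces 3-phosphoglycerate, had a change of -0.24 (limma adjusted p = 0.46), the phosphofructokinase Pfkm one of -0.35 and the regulator Tigar one of -0.47 (limma adjusted p = 0.371 for both). Of 8 genes below 3-phosphoglycerate, 8 were below WT with a median of -0.28, and after centring 7 were below with a median of -0.15. The mutase Pgam2, which uses the same substrate as Phgdh, and the enolase Eno3 of the next step had changes of -0.36 and -0.43 (limma adjusted p = 0.371 for both).

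Genes of glutamate and 2-oxoglutarate, the partners of the Psat1 step, were likewise not called, against 0.144% of all genes and 0.432% after centring. Of 17 genes 14 were under the WT mean, at a median log2 change of -0.22 in KO against WT, and 11 with a median of -0.09 after centring. The aminotransferase Got1 had a change of -0.38, the glutamine synthetase Glul and the isocitrate dehydrogenase Idh1 changes of -0.31 each, and glutamate dehydrogenase Glud1 one of -0.22 (limma adjusted p = 0.371 to 0.397). Pycr1, a proline synthesis enzyme, had a change of 0.32 (limma adjusted p = 0.371).

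Genes that use serine and its one-carbon units were not called either. Besides Shmt2, 6 genes of serine and glycine use were tested in KO against WT, 2 above WT and 4 below, with a median log2 change of -0.10. Shmt1, the cytosolic counterpart of Shmt2, had one of -0.11 (limma adjusted p = 0.722), and Srr, which makes D-serine, one of -0.22 (limma adjusted p = 0.397). After centring Shmt1 stood at 0.02 and Srr at -0.09. Of 7 genes of the folate and methionine cycles, 4 were above WT and 3 below, with a median of 0.015, and 6 were above with a median of 0.15 after centring. The folate receptor Folr1 had a change of 0.19 on a mean count of 46.1 (limma adjusted p = 0.557), and Mat2a, which makes S-adenosylmethionine, one of -0.31 (limma adjusted p = 0.371). None of these genes was called by limma in any of the 3 comparisons on either scaling. Over the panel 0% to 0.432% of all 695 genes were called in them.

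The transcript of Atf4, the factor known to act on all 4 genes, had a log2 change of -0.19 in KO against WT (limma adjusted p = 0.381) and -0.06 after centring. Its target Asns, asparagine synthetase, had changes of 0.04 and 0.17 on these scales. Of 36 genes in the list of ATF4 with its other targets, 7 were on the panel. Of these 7, 6 were above WT on each scaling, with medians of 0.05 and 0.19. Over the panel, 175 and 349 of 695 genes were above WT. None of the 7 was called, against 0.144% and 0.432% of the panel, and the highest was Pycr1, at 0.32 and 0.45. Phgdh, at 0.45 and 0.58, was chosen for its level in KO hearts, so its place above them was not tested.

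**Figure D5:**
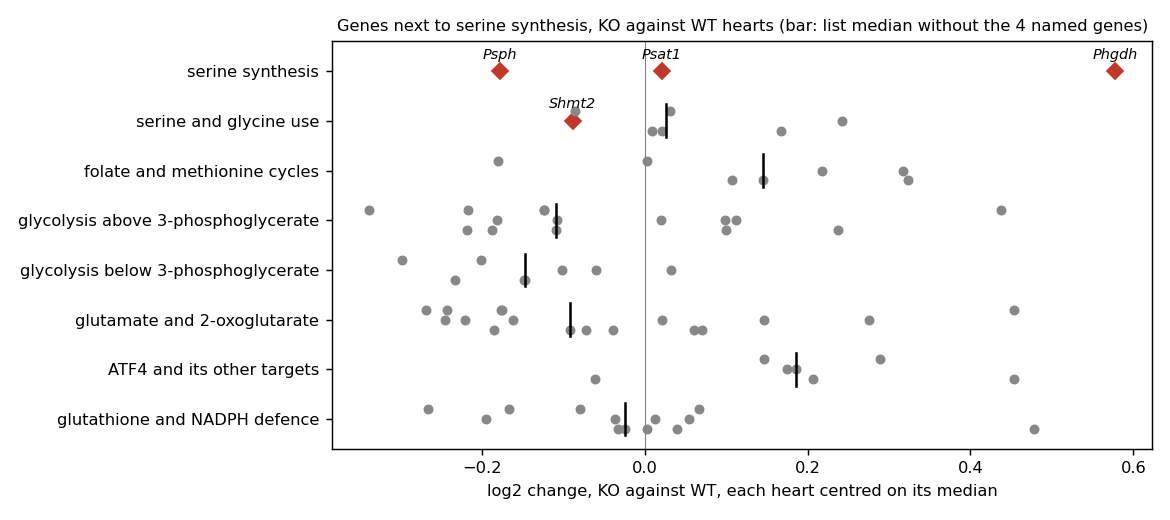
Log2 changes in KO against WT after median centring (horizontal axis) for each tested gene of 8 lists around serine synthesis, with red diamonds for Phgdh, Psat1, Psph and Shmt2, grey points for other genes and black bars for list medians without these 4. Phgdh, chosen for its level in KO hearts, lies at 0.58, to the right of all other genes drawn. Psat1, Psph and Shmt2 lie among the genes of the other lists.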

How the data were processed

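The authors deposited a ratio for each of 768 probes, divided by Tbp in the same heart, as the file shows Tbp at 1 in all 12 hearts. The sources used here name no software, background subtraction or scaling to control probes. The smallest whole number that made all ratios of a heart whole within 0.01 was read as its Tbp count, and counts are the smallest the ratios allow. Of the 768 deposited symbols 767 matched RefSeq on GRCm38.p6. Within a genotype, hearts differed beyond counting error (chi-square per degree of freedom 2.81 to 29.3 over 18 pairs).

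Log2((count + 1) / Tbp count) was fitted with limma 3.58.1 in R 4.3.3, with 1 mean per genotype over 12 hearts. Tbp was left out, as were 72 probes averaging under 20 counts, and p-values were adjusted by Benjamini-Hochberg over 695 genes. The fit was checked on simulated counts, with the noise of each gene drawn independently. That check did not cover shifts shared by groups of genes, such as the stromal ones. The labels tie no heart to a litter or batch, so p-values measure the spread between these hearts. Members and gene lists were chosen with earlier results of these data known, and the 12 promoter motifs with the sequences in view. Named were the members, up to 2 genes of smallest p per list, any gene called, genes next to the path, and the 3 genes most like each member; Mthfd2 and Pgam1 were not analysed here. Same-numbered hearts had deviations correlating at -0.51 to 0.359, and the main fit did not pair hearts by number. These correlations cannot show whether same-numbered hearts shared a litter or run. Alternatives covered pseudocount, filter, scaling, variance model, heart weights, stromal score, replicate block and each heart left out. Plots used Python 3.11.15 and matplotlib 3.10.9.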

Additional observations from a re-analysis of the deposited data

How the results depend on the processing

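Over 30 alternatives, 3 of them added after seeing the data, the change of Phgdh ran from 0.387 to 0.711 in KO against WT and from 0.56 to 0.748 in KO against HET, always positive. None of Psat1, Psph and Shmt2 was called in any comparison, except that 1 was called in KO against WT with array weights (Psph) and 1 in KO against HET with total count scaling (Psat1). Each heart left out in turn gave 0 calls among the 3 in every comparison, in fits that called 0 to 3 of all 695 genes. Psat1 in KO against WT turned positive with median centring (0.0211), total count scaling (0.155), quantile normalization (0.0869) and centring on 20 stable genes (0.0372), and with median centring combined with the stromal covariate (0.0646), the replicate block (0.0211) or the 3 hearts highest in stromal score left out (0.00913). With total count scaling Psph was -0.0445 and Shmt2 0.0453 in KO against WT, and Psph 0.0444 in KO against HET. Shmt2 in KO against HET turned negative without HET replicate 4 (-0.0624) or KO replicate 2 (-0.0462), with values of -0.0624 to 0.136 over the single hearts left out. The cause of these reversals was not tested. The replicate number as a block left 0 of the 3 called in each comparison, with Psph at -0.309 in KO against WT. Those fits called 1 or 2 of all 695 genes. HET against WT kept its sign for all 4 genes in all 30 alternatives, from -0.24 to -0.0363 for Phgdh and from -0.355 to -0.128 for Psat1. In the main fit 468 of 695 panel genes had that sign. Counting error was 2.4% to 6.9% per member and 4.81% to 6.02% for Tbp. Over the panel, hearts of the same genotype differed beyond it (chi-square per degree of freedom 2.81 to 29.3). Both limit what 4 hearts per genotype can resolve.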

Other observations

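Among 13 genes of glutathione and NADPH defence, 12 were under the WT mean in KO hearts on the deposited scaling, at a median log2 change of -0.16, and 7 after median centring with a median of -0.02. Over the panel 520 of 695 genes were under the WT mean on the deposited scaling, at a median of -0.13, and 346 after centring. None of the 13 was called by limma. Hmox1, the heme oxygenase, was the 1 gene above WT, at 0.35, and Pgd, an NADPH-producing enzyme of the pentose phosphate pathway, had a change of -0.33 (limma adjusted p = 0.371 for both).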
